A study of Mus musculus with 10 samples.

Results

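Ppara, the gene of the nuclear receptor PPARA, and 7 of its known liver targets were followed through every library: Cpt1a, Acadm, Ehhadh, Cyp4a10, Cyp4a14, Acot1 and Pdk4. The 8 genes were taken by name from the 19271 genes of the deposited expression table, with the transcripts of each gene summed, and all 8 were measured and tested in each comparison. They were read in liver RNA of C57BL6/N mice aged 2 months, with or without the S400D allele of Htra2, which encodes HtrA2/Omi, a serine protease of mitochondria. S400D puts an aspartate in the place of a serine of the protease. The groups were 3 males with S400D on both alleles (S400D/S400D, homozygous), 1 female of the same genotype, 3 males with a mutant and a wild-type allele (S400D/WT, heterozygous) and 3 males with no mutant allele (WT/WT, wild type). The labels give no litter, cage, feeding state or hour of collection and do not say whether wild-type animals were littermates, so the p-values reflect the spread among these libraries, which may be partly technical.

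PPARA is a ligand-activated transcription factor that is abundant in hepatocytes, where fatty acids released during fasting activate it. With its partner RXR it binds direct repeats of the AGGTCA motif and raises transcription of enzymes that import, shorten and hydroxylate fatty acids in mitochondria, peroxisomes and microsomes. Its best known liver targets are therefore genes of fasting, and they also follow the time of day, since feeding and the liver clock both act on the receptor. In the listed set, Cpt1a stands for entry into mitochondria, Acadm for mitochondrial beta-oxidation, Ehhadh for peroxisomal beta-oxidation, Cyp4a10 and Cyp4a14 for omega-hydroxylation, Acot1 for hydrolysis of acyl-CoA in the cytosol and Pdk4 for the block on pyruvate oxidation that spares glucose.

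Promoter sequence could be read for 6 of the 8 genes from RefSeq (GRCm38.p6), as the 250 bases before an annotated start. For Cpt1a and Ppara this window lies within the gene span given below, so the start used is not the outermost start of the gene. Cyp4a10 and Cyp4a14 are named only. The promoters of 4 targets are shown because their levels differ in pattern: Acadm, Acot1 and Pdk4 were each higher in every homozygous male than in any wild-type male, and Cpt1a was not. The strand of each gene is printed 5′ to 3′, and capitals mark an AGGTCA motif or a CCAAT box on either strand (TGACCT and ATTGG are the same motifs read on the other strand).
Acadm, chr3:153944644-153944893, minus strand: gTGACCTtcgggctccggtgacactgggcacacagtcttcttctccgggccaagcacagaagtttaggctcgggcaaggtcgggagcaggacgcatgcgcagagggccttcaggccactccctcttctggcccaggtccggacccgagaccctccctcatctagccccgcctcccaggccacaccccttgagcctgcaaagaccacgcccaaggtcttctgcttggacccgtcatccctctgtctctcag
Acot1, chr12:84009252-84009501, plus strand: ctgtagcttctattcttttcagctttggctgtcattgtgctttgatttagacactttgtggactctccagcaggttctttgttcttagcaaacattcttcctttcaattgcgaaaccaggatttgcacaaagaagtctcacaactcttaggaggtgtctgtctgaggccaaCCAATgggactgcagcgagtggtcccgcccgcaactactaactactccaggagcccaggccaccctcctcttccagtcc
Pdk4, chr6:5496279-5496528, minus strand: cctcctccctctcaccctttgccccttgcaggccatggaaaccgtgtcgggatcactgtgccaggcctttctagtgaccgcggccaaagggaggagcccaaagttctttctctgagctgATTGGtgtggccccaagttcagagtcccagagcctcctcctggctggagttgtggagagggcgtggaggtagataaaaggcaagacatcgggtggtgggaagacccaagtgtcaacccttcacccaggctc
Cpt1a, chr19:3323051-3323300, plus strand: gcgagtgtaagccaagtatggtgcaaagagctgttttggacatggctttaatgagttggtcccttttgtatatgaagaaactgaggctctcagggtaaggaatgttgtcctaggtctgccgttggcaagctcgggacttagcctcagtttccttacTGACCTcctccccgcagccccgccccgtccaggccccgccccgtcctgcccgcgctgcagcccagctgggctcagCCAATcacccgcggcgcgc
An AGGTCA motif lay in the promoters of Acadm, with its first base 249 bases before the start, and Cpt1a, 94 bases before the start, so 2 of 6 promoters held it against 14.0% of 32851 promoters of the same length. The full direct repeat (AGGTCA, any base, AGGTCA) was found in 0 of the 6 and in 0.0335% of all promoters. A CCAAT box was found in 4 of the 6 (Pdk4, Acot1, Ehhadh and Cpt1a), against 33.8% of all promoters. The clock motifs CACGTG (E-box, 6.02% of all promoters) and TTANGTAA (D-box, 2.06%) were in 0 of the 6. Both strands were searched, the repeat contains the shorter motif, and these matches describe letters in a short window, not binding sites.

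Each library held 16240441 to 17264289 expected counts, and the 8 genes together took between 0.104% and 0.649% of them. A gene with no reads could have been at up to 0.174 to 0.185 CPM (counts scaled to library size; 3 reads, counting error only), and the lowest value of any member was 0.517 CPM, for Pdk4. Htra2 itself lay between 12.3 and 17.1 CPM in all libraries, and since S400D changes the protein, that level does not check the genotype labels. Hepatocyte markers dominated every library, with 8 markers summing to 79696 to 139252 CPM. Alb was the largest part of this sum, which was highest in the homozygous males. Markers of muscle summed to at most 0.289 CPM and those of adipocytes to at most 8.37 CPM, with Lep and Plin1 at 0 reads in all libraries.

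Per unit of transcript length, the 8 genes spanned a wide range of abundance. On the authors' TPM scale, which corrects for transcript length, the median over the 10 libraries was highest for Cyp4a14 (331 TPM), Cyp4a10 (304 TPM) and Acadm (280.1 TPM), followed by Ehhadh (168 TPM) and Cpt1a (127 TPM). Ppara (48.7 TPM) and Acot1 (25.9 TPM) were lower, and Pdk4 was near the bottom at 1.82 TPM. The ranges of the first 3 genes overlapped widely, so their order is not fixed: Cyp4a14 alone ran between 8.65 and 1749 TPM. Between libraries, CPM differed 155-fold for Cyp4a14, 38.3-fold for Cyp4a10, 20.0-fold for Pdk4 and 17.0-fold for Acot1, but only 2.14-fold for Acadm, 2.30-fold for Ppara, 2.31-fold for Ehhadh and 3.28-fold for Cpt1a.

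**Figure D1:**
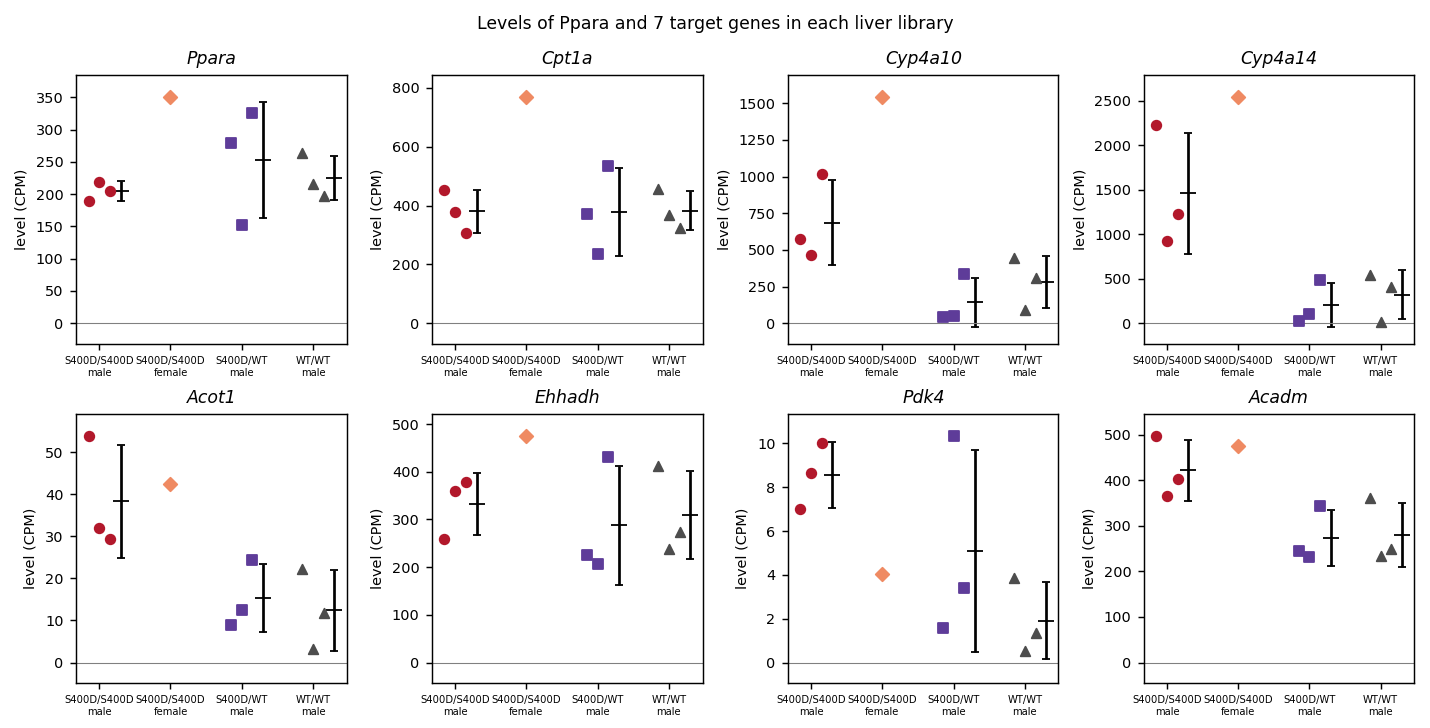
Level of each gene in each library (CPM scaled with TMM factors, linear axis), by genotype and sex, with a point for each library and, beside the 3 males of a group, a dash and bar for their mean ± SD (the bar can pass below 0 where the SD exceeds the mean). Cyp4a10, Cyp4a14, Acot1, Pdk4 and Acadm lie higher in every homozygous male than in any wild-type male, while Ppara, Cpt1a and Ehhadh overlap.

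Setting homozygous beside wild-type males asks what differs in liver when only the mutant protease is made. No member passed the adjusted threshold of 0.05 in edgeR's quasi-likelihood test, nor did any other gene: 0 of 12427 genes (0%) were called, with 1852 genes (14.9%) at an unadjusted p under 0.05. DESeq2 called 310 of the 16474 genes with any read (1.88%, a wider base than that of edgeR) and limma-voom 0, and neither called a member. The groups separated without overlap in 5 of the 8 genes (62.5%), each higher in the homozygotes, against 9.74% of all tested genes that were higher and 10.9% that were lower without overlap. Those 5 were Cyp4a10, Cyp4a14, Acot1, Pdk4 and Acadm, and they were the same 5 on each of the other 4 scales tried. Leaving out a male cannot undo a separation and can only add genes. No other member was added when any of the 6 males was left out, where 12.9% to 18.6% of all genes were higher without overlap. The 8 fold changes had a median of 0.93 (log2), with 6 above 0, beside a median of 0.00 over all genes, of which 50.7% were above 0. The 8 genes were chosen with earlier results of these data known, and several of them vary together across the libraries. Their shares and medians beside all genes, here and in the other comparisons, therefore describe the list and do not test it.

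Ppara itself, the receptor gene, did not separate the genotypes. It (chromosome 15, 85734910 to 85806851, GRCm38.p6) was at 189, 219 and 205 CPM in homozygous males, against 279.9, 152 and 326 CPM in heterozygous and 264, 216 and 197 CPM in wild-type males. The homozygotes lay close together within the range of the other genotypes, and heterozygous male 2 was the lowest of the 10 libraries. The log2 fold change was -0.15 against wild type (SE 0.25, 95% interval -0.71 to 0.42, edgeR adjusted p = 0.807) and -0.30 against heterozygotes (SE 0.25, adjusted p = 0.570). Of 14 transcripts listed for Ppara, 2 curated ones carried most of its counts, with 31.1% to 70.5% on the first and 22.8% to 59.3% on the other.

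Cpt1a encodes the liver carnitine palmitoyltransferase of the outer mitochondrial membrane, which controls entry of long-chain fatty acids (chromosome 19, 3322326 to 3385735). It was at 454, 379.8 and 308 CPM in homozygous males, 371, 235 and 533 CPM in heterozygous males and 455, 369 and 325 CPM in wild-type males. The 3 groups overlapped almost completely, and their means were 380.5, 379.7 and 383 CPM. The difference between homozygous and wild-type males was -0.02 (log2; SE 0.28), with a 95% interval of -0.65 to 0.61 (edgeR adjusted p = 0.985). The transcript that carries most of the gene held 96.7% to 100% of its counts in homozygous males, 84.0% to 99.7% in heterozygous and 83.7% to 90.9% in wild-type males, as the authors' program assigned them.

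Acadm, the medium-chain acyl-CoA dehydrogenase of the mitochondrial matrix, showed the smallest spread and a small separation (chromosome 3, 153922353 to 153944643). Its levels were 496, 366 and 402 CPM in homozygous males, 245, 231 and 343 CPM in heterozygous males and 361, 233 and 248 CPM in wild-type males. Every homozygote exceeded every other male, though homozygous male 2 and wild-type male 1 differed by only a few CPM. The fold change was 0.58 against wild type (log2; SE 0.22, 95% interval 0.08 to 1.08, unadjusted p = 0.0269, edgeR adjusted p = 0.283) and 0.62 against heterozygotes (SE 0.22, unadjusted p = 0.0191, adjusted p = 0.209). On the linear scale these are 1.49-fold and 1.54-fold.

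Ehhadh, the bifunctional enzyme of peroxisomal beta-oxidation, did not separate the genotypes (chromosome 16, 21761285 to 21787834). It was at 259, 359.6 and 379 CPM in homozygous males, 225, 206 and 431 CPM in heterozygous males and 413, 239 and 274 CPM in wild-type males. Heterozygous male 3 and wild-type male 1 were higher than any homozygous male. Its log2 fold change was 0.10 against wild type (SE 0.32, 95% interval -0.62 to 0.83, edgeR adjusted p = 0.901) and 0.21 against heterozygotes (SE 0.32, adjusted p = 0.780).

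The omega-hydroxylases of the Cyp4a cluster on chromosome 4 showed the widest spread. Cyp4a14 (115486200 to 115496158) was at 2230.0, 919.9 and 1228 CPM in homozygous males, against 21.9, 106 and 489.6 CPM in heterozygous and 538, 16.4 and 409 CPM in wild-type males. The lowest homozygote stood above the highest of the other 6 males, yet heterozygous males 1 and 2 and wild-type male 2 were far below the rest of their own groups. The fold change was 2.17 against wild type (log2; SE 1.21, 95% interval -0.56 to 4.89, edgeR adjusted p = 0.427) and 2.81 against heterozygotes (SE 1.24, unadjusted p = 0.0492, adjusted p = 0.289).

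Cyp4a10, its neighbour (115518287 to 115533649), followed the same libraries. Levels were 577, 467 and 1016 CPM in homozygous males, 40.3, 52.4 and 333 CPM in heterozygous males and 442, 88.9 and 311 CPM in wild-type males. Homozygous male 2 and wild-type male 1 nearly touched, and the 3 libraries low in Cyp4a14 were also the 3 lowest here. The log2 fold change was 1.28 against wild type (SE 0.83, 95% interval -0.59 to 3.15, edgeR adjusted p = 0.492) and 2.26 against heterozygotes (SE 0.85, unadjusted p = 0.0259, adjusted p = 0.230). Of the stretches of 100 bases in the Cyp4a10 transcript, 12.7% also occur in Cyp4a32 or Cyp4a31, and its counts were not whole in 9 of 10 libraries, so a part of its reads was divided between these genes. Cyp4a14 had 0% of shared stretches.

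Acot1, a cytosolic thioesterase that frees fatty acids from acyl-CoA (chromosome 12, 84009502 to 84017670), was low in abundance and followed Cyp4a14. Homozygous males had 53.7, 31.9 and 29.4 CPM, heterozygous males 8.98, 12.5 and 24.4 CPM and wild-type males 22.2, 3.17 and 11.8 CPM. All homozygotes lay above all other males, and wild-type male 2 was again the lowest. The fold change was 1.61 against wild type (log2; SE 0.60, 95% interval 0.26 to 2.95, unadjusted p = 0.0242, edgeR adjusted p = 0.278) and 1.31 against heterozygotes (SE 0.59, adjusted p = 0.297). Acot1 shares 21.9% of its 100-base stretches with other thioesterases of its cluster, most with Acot2 (16.5%) and others with Acot3 and Acot5, so the division of reads among them is uncertain.

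Pdk4, the kinase that inactivates pyruvate dehydrogenase (chromosome 6, 5483351 to 5496278), was the least abundant member, with 8 to 175 counts per library. It was at 7.03, 8.66 and 10.0 CPM in homozygous males, 1.56, 10.3 and 3.41 CPM in heterozygous males and 3.88, 0.517 and 1.35 CPM in wild-type males. Homozygotes exceeded wild types without overlap, while heterozygous male 2 was the highest of all 10 libraries. The log2 fold change was 2.13 against wild type (SE 0.75, 95% interval 0.45 to 3.81, unadjusted p = 0.0183, edgeR adjusted p = 0.260) and 0.75 against heterozygotes (SE 0.69, adjusted p = 0.621). In DESeq2 the adjusted p against wild type was 0.0617, the smallest of any member under any setting.

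**Figure D2:**
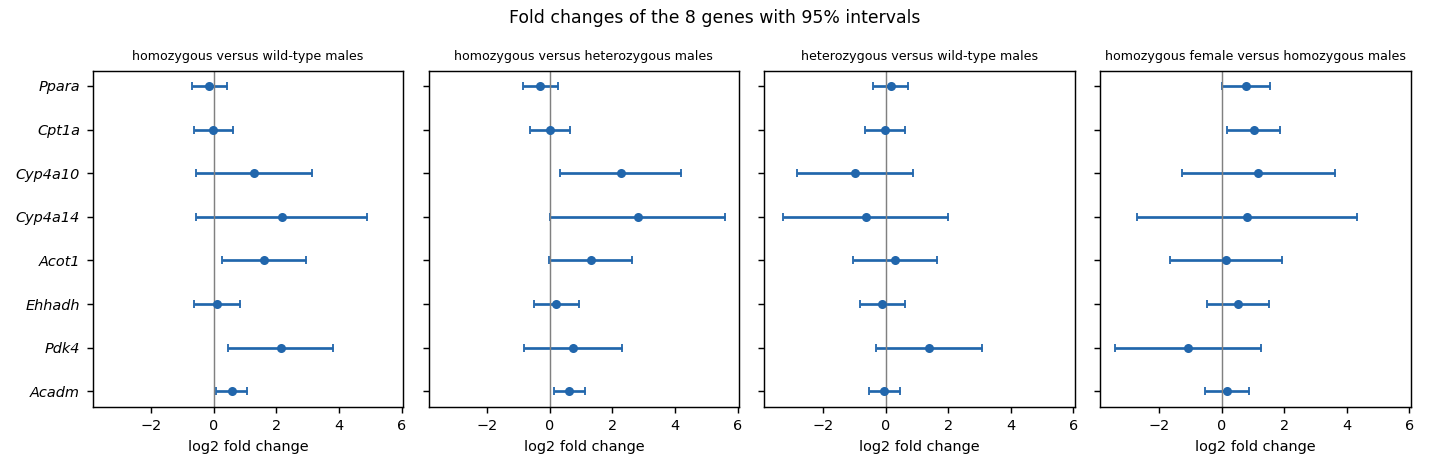
Log2 fold change of each gene (x axis) with its 95% interval from the edgeR fit, in 4 comparisons; a value above 0 means higher in the group named first in the panel title. The intervals of Acot1, Pdk4 and Acadm lie above 0 in homozygous against wild-type males before adjustment, and those of Cyp4a10 and Cyp4a14 are the widest.

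Against heterozygous males the pattern was similar, with Pdk4 no longer separate. Between homozygous and heterozygous males, 4 of 8 genes were higher without overlap (Cyp4a10, Cyp4a14, Acot1 and Acadm), beside 10.6% of all genes that were higher and 11.7% that were lower. edgeR called 0 of 12427 genes (0%), with 2134 (17.2%) at an unadjusted p under 0.05, DESeq2 called 515 of 16474 (3.13%) and limma-voom 0, none of them a member. At an unadjusted p under 0.05, 3 members were higher (Cyp4a10, Cyp4a14 and Acadm) and 0 lower, beside 8.25% and 8.92% of all genes. This comparison and the one with wild-type males share the homozygous animals, so they are not independent. Without heterozygous male 2, Pdk4 was also higher without overlap and Ppara lower, beside 16.6% of all genes higher and 17.8% lower. Without heterozygous male 3, Ehhadh was also higher, beside 15.0% of all genes.

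Heterozygous males did not stand apart from wild-type males in any member. The comparison asks whether a single mutant allele has an effect. No member was higher or lower without overlap, beside 4.98% of all genes that were higher and 4.92% that were lower. edgeR called 0 of 12427 genes (0%) with 521 (4.19%) at an unadjusted p under 0.05, DESeq2 called 7 of 16474 (0.0425%) and limma-voom 0. At an unadjusted p under 0.05, 0 members were higher or lower, beside 1.67% and 2.52% of all genes. The largest member difference was that of Pdk4 at 1.39 (log2; SE 0.75, edgeR adjusted p = 0.972), from 5.10 ± 4.62 CPM in heterozygous and 1.92 ± 1.75 CPM in wild-type males (SD, n = 3 each), followed by Cyp4a10 at -0.98 (SE 0.82, adjusted p = 0.972) and Cyp4a14 at -0.64 (SE 1.17, adjusted p = 0.979). Acot1 (0.29), Ppara (0.16), Ehhadh (-0.11), Acadm (-0.05) and Cpt1a (-0.02) differed less on that scale, with standard errors of 0.22 to 0.60. The 95% interval for Cyp4a14 ran over -3.27 to 1.98 and that for Pdk4 over -0.30 to 3.07. Without heterozygous male 3, Cyp4a10 and Ehhadh were lower without overlap, as were 8.83% of all genes. Ppara was higher without heterozygous male 2 (9.07% of all genes), and Pdk4 without wild-type male 1 (15.0%).

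Levels of clock genes differed between the same libraries. An index of clock phase, log2 of Arntl over Dbp (a core activator over an output gene that peaks in the opposite phase), was 1.91, 1.02 and 4.91 in homozygous males, -7.73, 2.39 and -5.35 in heterozygous males and -5.61, -5.92 and -5.21 in wild-type males. Heterozygous male 2 thus stood with the homozygotes, and the other heterozygotes with the wild types. Pdk4 followed this division, at 7.03 to 10.3 CPM in the 4 libraries with a positive index and 0.517 to 4.03 CPM in the other 6. Cyp4a14 and Acadm did not: heterozygous male 2 had 106 CPM of Cyp4a14 and 231 CPM of Acadm, the lowest Acadm level of the 10 libraries. With the index as a covariate among the 9 males, the difference between homozygous and wild-type males was 0.30 for Pdk4 (log2; SE 0.87), 2.60 for Cyp4a14 (SE 2.47), 1.72 for Cyp4a10 (SE 1.85), 1.78 for Acot1 (SE 1.06) and 0.76 for Acadm (SE 0.38), all at an edgeR adjusted p of 0.980 or above. Under the same covariate Ppara was at 0.58 (SE 0.31) and Cpt1a at 0.74 (SE 0.37), each above 0 where the fit without it was below. The clock's part in the differences was not tested beyond this fit, in which 3 of the 4 males with a positive index are homozygotes.

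**Figure D3:**
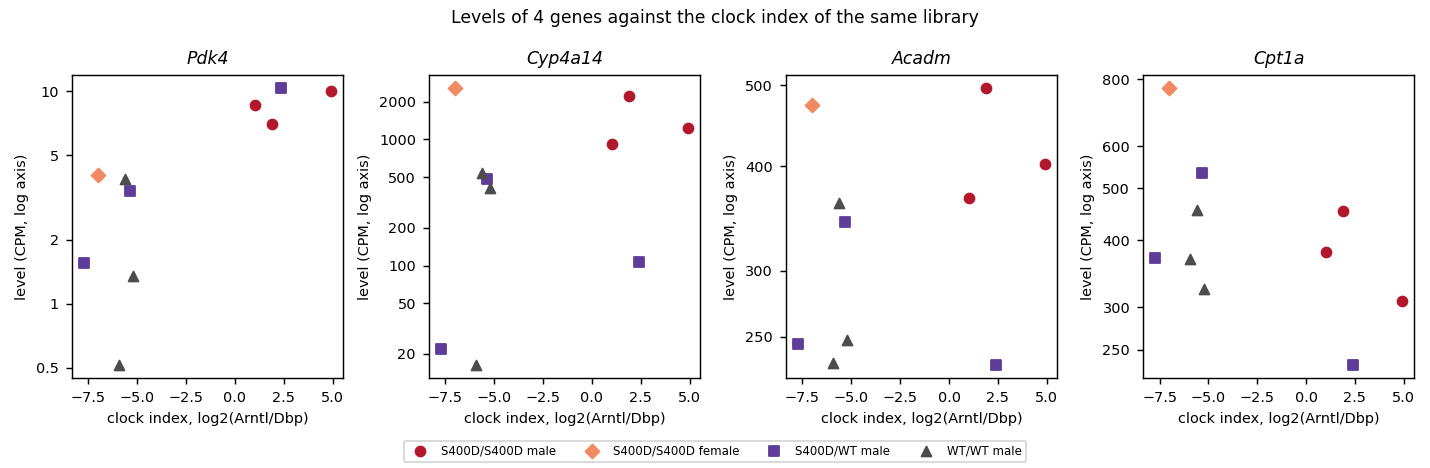
Level of Pdk4, Cyp4a14, Acadm and Cpt1a (CPM, log axis) against the clock index, log2 of Arntl over Dbp, with a point for each of the 10 libraries. Pdk4 is highest in the 4 libraries with a positive index, 1 of them heterozygous, while Cyp4a14 and Acadm are low in that heterozygous library and high in the homozygous female, whose index is -7.01.

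Genes of the fed state also differed between the same libraries. The sum of 5 genes of the fed state (Pklr, Srebf1, Fasn, Acly and Thrsp) was 245 to 923 CPM in homozygous males, 1801 to 3359.6 CPM in heterozygous males and 1477 to 2844 CPM in wild-type males, with the homozygotes apart from both other groups, and 0 of the 5 were above 0 in homozygous against wild-type males (median -1.53). Among 7 genes of fasting outside fatty acid oxidation, 4 were above 0 (median 0.50), and their sum was 4225 to 10169.7 CPM in homozygous against 5536 to 6740.4 CPM in wild-type males. Igfbp1, an insulin-repressed gene with the largest rise of that list, was at 329, 64.3 and 280.0 CPM in homozygous males and 55.6 to 68.8 CPM in wild-type males. G6pc (-0.54), Sds (-0.31) and Tat (-0.19) of the same list were below 0 (log2 fold change). Homozygous male 1 had the lowest sum of fed genes and the highest Cyp4a14, Acot1 and Acadm of the 9 males. Among the homozygous males it also had the highest Cpt1a, but the lowest Ppara (189 CPM), Ehhadh (259 CPM) and Pdk4 (7.03 CPM), with Cyp4a10 between the others. The part of feeding state in the differences of the 8 genes was not tested.

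Markers of other liver cell types differed in part with the groups. All 8 macrophage markers were above 0 in homozygous against wild-type males (median 0.73), with sums of 337 to 355 CPM in homozygous, 150.03 to 371 CPM in heterozygous and 111 to 389 CPM in wild-type males. Endothelial markers (7 of 7 above 0, median 0.63) summed to 224 to 227 CPM in homozygous, 146 to 212 CPM in heterozygous and 98.5 to 236 CPM in wild-type males, and stellate cell markers (6 of 7, median 0.76) to 229.8 to 402, 205 to 324 and 101 to 261 CPM in the same order of groups. In wild-type male 1, macrophage and endothelial sums were as high as in homozygotes. Its Cyp4a10, Cyp4a14, Acot1, Pdk4 and Acadm were below those of the homozygotes and above those of the other wild-type males. For Acadm it had 361 CPM, beside 366 CPM in homozygous male 2. Heterozygous male 2 had 300 CPM of macrophage and 188 CPM of endothelial markers, both above wild-type males 2 and 3. Its Acadm (231 CPM) and Cyp4a10 (52.4 CPM) were nevertheless below those of every wild-type male. Its Cyp4a14 (106 CPM) and Acot1 (12.5 CPM) lay within the wild-type range, and its Pdk4 (10.3 CPM) was above it. Of the 4 cholangiocyte markers 1 was above 0 (Sox9; median -0.46), with sums of 5.57 to 8.89 CPM in homozygous, 3.35 to 8.61 CPM in heterozygous and 4.48 to 6.59 CPM in wild-type males. Hepatocyte markers (5 of 8 above 0, median 0.08) summed to 120024 to 139252 CPM in homozygous, 79696 to 104218 CPM in heterozygous and 99339 to 114239 CPM in wild-type males, so this sum also separated the homozygotes from both other groups. Alb was the largest part of it, with means of 95736, 58200 and 74428 CPM in the same order of groups. Apoa1, Serpina1a and Tat were below 0 in homozygous against wild-type males. In bulk tissue, fewer cells of a type and less RNA per cell cannot be told apart, and the part of cell makeup in these differences was not tested.

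The homozygous female was set against the homozygous males of the same genotype. She had the highest level of all 10 libraries for Ppara (350.4 CPM), Cpt1a (769 CPM), Cyp4a10 (1542 CPM), Cyp4a14 (2543 CPM) and Ehhadh (474 CPM), all 5 above every homozygous male, where 27.3% of 12954 tested genes were. Pdk4 was below every homozygous male at 4.03 CPM, as were 27.1% of genes, while Acot1 (42.3 CPM) and Acadm (474 CPM) lay within their range. The fold changes against homozygous males were 1.02 for Cpt1a (log2; SE 0.38, unadjusted p = 0.0232, edgeR adjusted p = 0.398) and 0.78 for Ppara (SE 0.34, unadjusted p = 0.0459, adjusted p = 0.470). Those of Cyp4a10 (1.17, SE 1.08), Cyp4a14 (0.81, SE 1.57), Ehhadh (0.51, SE 0.44) and Pdk4 (-1.09, SE 1.04) had adjusted p-values of 0.746 to 0.915. In this comparison edgeR called 10 genes (0.0772%), DESeq2 100 (0.604%) and limma-voom 15, with no member among them. Ppara and Cpt1a were the 2 members higher at an unadjusted p under 0.05 and 0 were lower, beside 5.21% and 5.13% of all genes. A single female is assumed to vary as the males do, and sex cannot be told apart from the individual animal. Her clock index was -7.01, that of the homozygous males 1.02 to 4.91.

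Cpt1a and Ehhadh, which did not separate the genotypes, had the highest correlations with Ppara. Over the 10 libraries, on the log2(CPM + 1) scale, Cpt1a correlated with Ppara (Pearson r = 0.846, permutation p = 0.00174, adjusted over 7 relations 0.0122; Spearman rho = 0.758, permutation p = 0.0148, adjusted 0.104). Without heterozygous male 3 and the female, the libraries farthest from the median of Ppara, r was 0.653 in 8 libraries (exact permutation p = 0.0801), so the relation rests in part on those libraries. For Ehhadh r was 0.680 (permutation p = 0.0348, adjusted 0.122; rho = 0.648, permutation p = 0.0484, adjusted 0.169) and 0.379 without the same libraries. Cyp4a14 (r = 0.138), Acot1 (0.194), Cyp4a10 (0.311), Acadm (0.328) and Pdk4 (-0.33) had permutation p-values that adjust to 0.528 or above, with rho between -0.35 and 0.188. In the males alone, after genotype means were removed, r with Ppara was 0.839 for Cpt1a, 0.722 for Ehhadh and 0.144 for Cyp4a14.

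**Figure D4:**
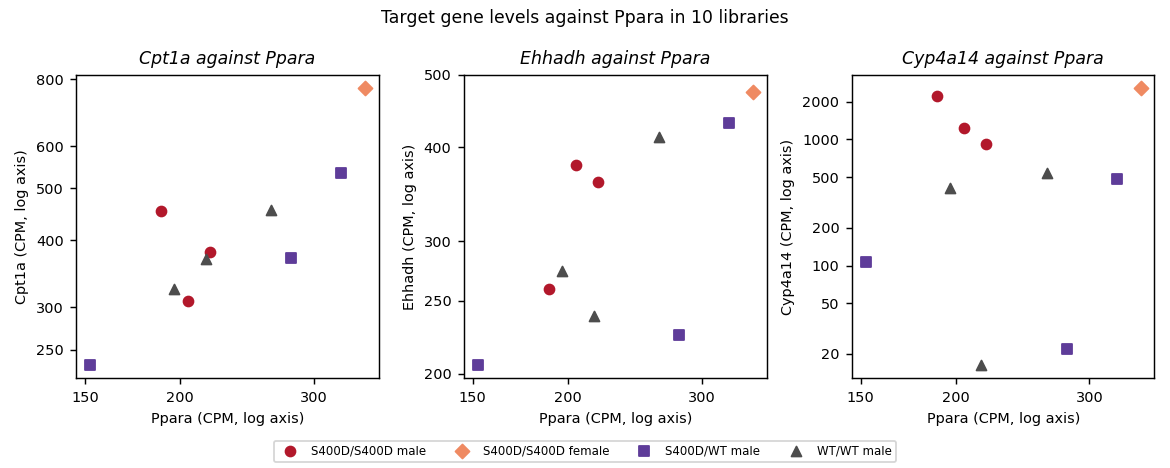
Level of Cpt1a, Ehhadh and Cyp4a14 against that of Ppara (CPM, log axes), with a point for each of the 10 libraries. Cpt1a is highest where Ppara is highest (r = 0.846 on the log2(CPM + 1) scale), whereas the homozygous males combine Ppara levels of 189 to 219 CPM with more Cyp4a14 than any other male.

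The highest correlations between members were among Cyp4a10, Cyp4a14, Acot1 and Acadm. As a description over 10 libraries that differ in genotype, clock phase and cell makeup, r was 0.938 for Cyp4a14 with Acot1, 0.916 for Cyp4a10 with Cyp4a14 and 0.913 for Acot1 with Acadm. In the males alone, the same pairs gave 0.941, 0.873 and 0.841 once genotype means were removed. Pdk4 was less like the others, with r of 0.708 with Acot1 as its highest and -0.33 with Ppara as its lowest.

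Genes outside the set with the most similar profiles were found among 9008 genes that averaged 5 CPM or more. Cpt1a was closest to Creb3l3, a liver transcription factor of fasting that works with PPARA (r = 0.988), then to Bfar (0.972) and the acyl-CoA synthetase Slc27a2 (0.952). Cyp4a14 was closest to Retsat, retinol saturase and a target of PPARs (0.950), and Acot1 to the autophagy gene Atg12 (0.983), with Retsat the third (0.963). Cyp4a10 was closest to the vitamin B12 carrier gene Tcn2 (0.951) and its relative Cyp4a31 (0.947), and Ehhadh to Tbc1d22a (0.950) and Hadha, a subunit of the mitochondrial trifunctional protein (0.944). Ppara was closest to the mitochondrial dicarboxylate carrier Slc25a10 (0.910) and Pdk4 to Crip2 (0.958). For Acadm these were Ldha (0.961) and Hsdl2 (0.959), then the macrophage receptor gene Marco (0.946), which is among the macrophage markers above and stood at 14.0 ± 7.66 CPM in homozygous against 3.23 ± 2.37 CPM in wild-type males (SD, n = 3 each).

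The wider pathway had fold changes centred near 0. Of 99 other genes of fatty acid oxidation and PPARA in 9 lists by role, 98 were tested in the males. In homozygous against wild-type males 52 of 98 were above 0, with a median of 0.02 (log2) beside 0.00 over all genes, and none passed the adjusted threshold in edgeR. At an unadjusted p under 0.05 there were 8 higher and 5 lower, against 6.82% and 8.08% of all genes. The medians were 0.29 for the carnitine shuttle without Cpt1a (4 of 7 above 0), 0.17 for thioesterases without Acot1 (5 of 8), 0.12 for ketone body synthesis (3 of 4), 0.09 for other PPARA targets (8 of 12) and 0.07 for partners and coregulators (9 of 15). They were -0.03 for peroxisomal oxidation without Ehhadh (7 of 14), -0.05 for uptake and activation (5 of 13), -0.09 for mitochondrial beta-oxidation without Acadm (8 of 17) and -0.17 for omega-oxidation without Cyp4a10 and Cyp4a14 (3 of 8). Among the thioesterases, Acot13 was lower without overlap, as were 10.9% of all tested genes. It was at 23.5, 28.5 and 27.1 CPM in homozygous males and 39.7, 32.3 and 43.5 CPM in wild-type males (log2 fold change -0.55, SE 0.13, edgeR adjusted p = 0.178).

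**Figure D5:**
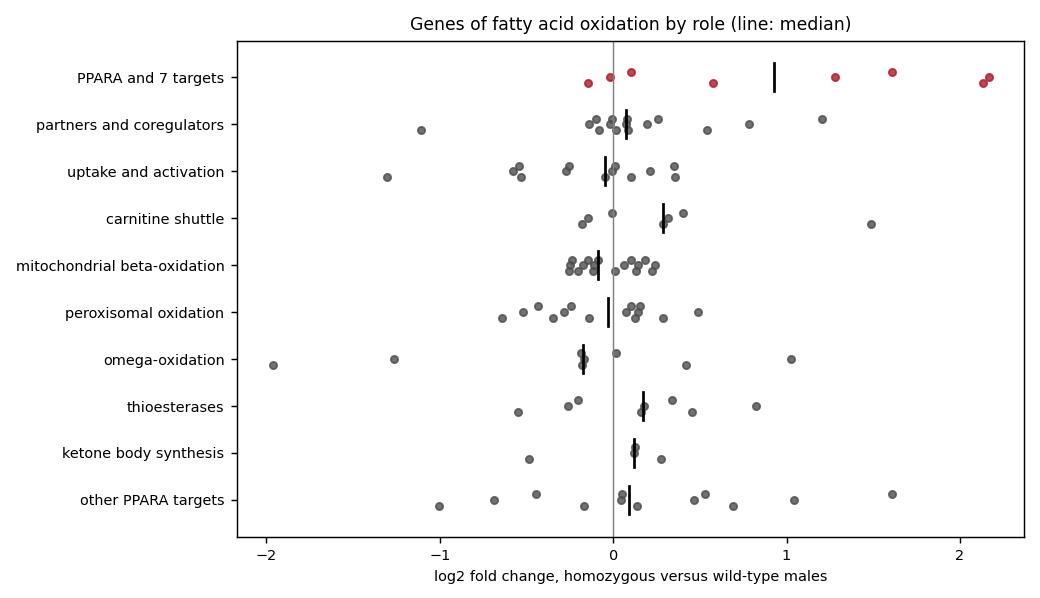
Log2 fold changes, homozygous over wild-type males (x axis), for Ppara with its 7 targets and for the genes of 9 role lists, with a point for each tested gene and a vertical line at the median of each list. The 8 genes have a median of 0.93, and the lists have medians between -0.17 and 0.29.

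Partners and coregulators of the receptor included some of the smallest p-values of the 9 lists. Nrip1, a corepressor of nuclear receptors, was at 12.1, 10.6 and 12.6 CPM in homozygous males and 6.83, 5.88 and 7.68 CPM in wild-type males (log2 fold change 0.78, SE 0.14, edgeR adjusted p = 0.147). The coactivator gene Ppargc1a was at 17.2, 14.0 and 18.9 CPM in homozygous males, 4.74, 8.67 and 7.48 CPM in heterozygous males and 12.7, 11.96 and 9.58 CPM in wild-type males. The homozygotes were higher without overlap, as in 10.6% of all genes against heterozygotes and 9.74% against wild type. The Ppargc1a fold change was 1.26 against heterozygotes (SE 0.23, edgeR adjusted p = 0.104) and 0.54 against wild type (SE 0.22, adjusted p = 0.302). Its relative Ppargc1b was lower, with 10.4 ± 3.66 CPM in homozygous and 22.3 ± 7.32 CPM in wild-type males (SD, n = 3 each; log2 fold change -1.11, SE 0.29, adjusted p = 0.206). Ppard, the gene of another receptor of the family, averaged 13.3 ± 6.63 CPM in homozygous and 5.77 ± 0.163 CPM in wild-type males (1.20, SE 0.47, adjusted p = 0.292), with 18.8 CPM in heterozygous male 2, the heterozygote with a positive clock index.

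Other known PPARA targets varied in direction. Retsat was at 614, 408 and 526 CPM in homozygous males and 321, 147 and 277 CPM in wild-type males (log2 fold change 1.04, SE 0.31, edgeR adjusted p = 0.227), and Crat, which transfers short acyl groups to carnitine, at 98.8, 54.2 and 62.4 CPM against 35.1, 15.8 and 25.2 CPM (1.49, SE 0.36, adjusted p = 0.187). Both were higher without overlap, as were 9.74% of all tested genes, and both were named for small p-values within their lists. Fabp1, of the uptake list, was lower without overlap, as were 10.9% of all tested genes. It was at 237, 1488 and 839 CPM in homozygous males and 3141, 1618 and 1585 CPM in wild-type males. In edgeR it was not among the genes of that list at an unadjusted p under 0.05. Angptl4 (0.53), Plin2 (0.14) and Vnn1 (-0.17) had standard errors of 0.39 to 0.78 and adjusted p-values of 0.637 to 0.939, and Acot2, the mitochondrial relative of Acot1, was at 0.18 (SE 0.68). Fgf21, the fasting hormone, averaged 0.390 CPM in homozygous and 0.122 CPM in wild-type males, too few reads to compare.

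Omega-hydroxylases related to the members differed in direction. Cyp4a31, which shares sequence with Cyp4a10, was at 19.3, 14.9 and 12.2 CPM in homozygous males, 2.06, 3.13 and 10.4 CPM in heterozygous males and 9.73, 4.98 and 7.92 CPM in wild-type males. It was higher without overlap against both groups, as were 10.6% of all genes against heterozygotes and 9.74% against wild type. Its log2 fold change against heterozygotes was 1.56 (SE 0.52, unadjusted p = 0.0148, edgeR adjusted p = 0.195). Cyp4a12b averaged 22.0 ± 8.40 CPM in homozygous and 85.9 ± 1.90 CPM in wild-type males (SD, n = 3 each; log2 fold change -1.96, SE 0.35, edgeR adjusted p = 0.147), and Cyp4a12a 80.2 ± 56.8 CPM against 193 ± 56.7 CPM (-1.27, SE 0.46, adjusted p = 0.274). Both are male-biased in mouse liver, and as near-identical copies they can exchange reads. Of all named genes of the 9 lists, Cyp4a12b in the female passed the adjusted threshold: it was at 0.170 CPM in the female, at the limit of a few reads, against 22.0 ± 8.40 CPM in homozygous males (adjusted p = 0.0498). In heterozygous against wild-type males the smallest p-values of the lists belonged to Fgf21, Cyp4f15 (125 ± 10.4 against 155 ± 11.9 CPM), Ppargc1a and G0s2 (40.3 ± 2.22 against 16.3 ± 5.52 CPM), all at an adjusted p of 0.972. Against heterozygotes, the liver fatty acid binding protein gene Fabp1 was at 855 ± 626 CPM in homozygous males, beside 3354 ± 1159 CPM in heterozygous males (-1.96, SE 0.60, adjusted p = 0.165).

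In the female against homozygous males, 74 of 99 fold changes of the role lists were above 0, with a median of 0.31. Over all genes the median was -0.01, and 48.2% were above 0. Of 17 mitochondrial beta-oxidation genes, 16 were above 0 (median 0.30). Among thioesterases, Acot3 was at 407 CPM in the female and 33.9, 5.23 and 2.70 CPM in homozygous males (log2 fold change 4.88, SE 1.35, edgeR adjusted p = 0.331), and Acot4 at 77.6 CPM and 20.3 ± 10.2 CPM (1.94, SE 0.49, adjusted p = 0.327). Acot2 stood at 14.5 CPM and 3.45 ± 1.16 CPM (2.08, SE 0.82, adjusted p = 0.426). Acot1, which shares sequence with Acot2 and Acot3, had a log2 fold change of 0.15 (SE 0.80, adjusted p = 0.978). The peroxisomal transporter gene Abcd2 (85.7 against 21.0 ± 7.72 CPM) and the peroxisomal thiolase gene Acaa1a (304 against 154 ± 21.7 CPM) were also higher in the female at unadjusted p-values of 0.0261 and 0.00738.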

How the data were processed

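Poly(A) RNA of 10 livers was sequenced, per the labels' protocols. HISAT, Bowtie2 and the build GRCm38.p6 are named in the submitters' processing notes. Versions, roles, counting program and strand use: not given in the sources used here. Deposited by the authors were expected counts (not normalised), FPKM and TPM for 77712 transcripts. FPKM and TPM, scaled by the authors for length and library, were used for alternatives and for comparing levels between genes.

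Transcripts were summed to 19271 genes (19214 matched to RefSeq) and rounded; 94.5% of sums were within 0.05 of a whole number. The test was edgeR 4.0.16 (R 4.3.3; quasi-likelihood, TMM factors, filterByExpr by group, Benjamini-Hochberg over all genes, threshold 0.05). The 9 males were fitted together (12427 genes, 3 comparisons, 6 residual degrees of freedom), and the female in a fit of 10 samples (12954 genes). The fit was run on simulated data with a single spread for all genes, which does not show how it behaves at the wide spread of some members. Levels are CPM (TMM factors), with SD over the 3 males of a group. Non-overlap means that every sample of a group exceeds every sample of the other. Alternatives were DESeq2 1.42.0, limma 3.58.1 (voom, and log2(FPKM + 1) or log2(FPKM + 0.1)), other size factors and filters, a clock covariate, other sample sets, a replicate block and omission of each male. Shares called by DESeq2 are over all genes with any read in the samples fitted. Its default filter can leave some of these without an adjusted p, so the shares are not on the base of edgeR. Other scales for the overlap counts were chosen after seeing the data.

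Members and gene lists were chosen with earlier results of these data known. Named genes are all members, a comparison set (among them Fgf21, Angptl4, Plin2, Vnn1 and Acot2), genes called in a role list or, without calls, up to 4 per list and comparison at the smallest unadjusted p under 0.05, and the 3 most alike per member. Igfbp1, Arntl, Dbp and Sox9 were named after their values were seen, and some genes that the rule or the lists chose are not reported here. Permutation p-values used 100000 resamples, or all orders for 8 libraries, and are two-sided.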

Additional observations from a re-analysis of the deposited data

How the results depend on the processing

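No member passed the adjusted threshold under any setting. Counts of called genes over the whole table moved with the tool. In homozygous against wild-type males edgeR called 0, DESeq2 310 and limma on log2(FPKM + 1) without a filter 1; in homozygous against heterozygous males these were 0, 515 and 1, and in heterozygous against wild-type males DESeq2 called 7 where edgeR called 0. For the female against homozygous males edgeR called 10, DESeq2 100, limma without a filter 60, limma on log2(FPKM + 0.1) 6 and edgeR with at least 1 CPM in 3 samples 5. Omitting each male gave 0 to 18 calls in homozygous against wild-type males (18 without wild-type male 1), 0 to 6 in homozygous against heterozygous males (6 without homozygous male 2), 0 to 0 in heterozygous against wild-type males and 7 to 12 for the female. Leaving out a male cannot undo a separation, so counts without overlap could only stay or rise. Members higher without overlap numbered 5 to 5, 4 to 5 and 0 to 1 in those male comparisons when each male was left out, beside 12.9% to 18.6%, 14.7% to 18.3% and 8.03% to 15.0% of all genes. Members lower numbered 0 to 0, 0 to 1 and 0 to 2, beside 13.2% to 18.2%, 14.8% to 19.3% and 7.32% to 14.6% of all genes.

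The fold changes of members that changed sign were as follows. With the clock index as a covariate, Ppara was at 0.58 and Cpt1a at 0.74 in homozygous against wild-type males, Cpt1a at 0.13 in heterozygous against wild-type males, and Ppara at 0.30 and Pdk4 at -0.25 in homozygous against heterozygous males. With limma on FPKM, Cpt1a was at 0.0407 with pseudocount 1 (with or without a filter) and 0.0411 with 0.1 in homozygous against wild-type males, and Acadm at 0.0374 and 0.0377 in heterozygous against wild-type males. With all 10 samples in the fit Cpt1a was at -0.000187 in homozygous against heterozygous males. When each male was left out, some fold changes took either sign. In homozygous against wild-type males these were Cpt1a (-0.15 to 0.14) and Ehhadh (-0.0596 to 0.38). In heterozygous against wild-type males they were Ppara (-0.0675 to 0.42), Cpt1a (-0.34 to 0.23), Acot1 (-0.22 to 1.03), Ehhadh (-0.52 to 0.17) and Acadm (-0.24 to 0.19). In homozygous against heterozygous males it was Cpt1a (-0.25 to 0.34), and for the female Acot1 (-0.0046 to 0.459).

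Replicate numbers did not pair the males: same-numbered samples correlated between -0.44 and 0.211, and the replicate block left 0 calls in each male comparison. The cause of these changes was not tested. With 3 animals a group, the 95% interval for Cyp4a14 ran over -0.56 to 4.89, and Pdk4 rests on 8 to 175 counts.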
